A study of Mus musculus with 12 samples.

Results

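The miR-15/16 family and the miRNAs clustered with miR-322 and miR-503 were followed through 12 small RNA libraries of sorted mouse embryonic cells. Members were taken by name: every mature arm and precursor called mir-15a, mir-15b, mir-16, mir-195, mir-497, mir-322, mir-503, mir-351, mir-542 or mir-450. This gave 29 of the 1053 entries in the count table, 19 of them mature arms and 10 precursors. The mir-15 and mir-16 loci (here the mir-15/16 loci) held 9 entries, the locus of mir-195a and mir-497a held 3, and the X-linked cluster that starts with mir-322 and mir-503 (here the mir-322 cluster) held 17.

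The libraries were 3 each from embryonic day (E) 8.5 and from each of the 3 days that followed, up to E11.5. At E8.5 the cells came from whole Foxa2-CreER, tdtomato+ embryos, in which a Cre that needs tamoxifen is made from the Foxa2 locus and marks endoderm among other Foxa2-expressing cells. At the 3 later stages they came from the trunk of Pdx1-Cre, tdtomato+ embryos, in which Cre is driven by the Pdx1 promoter in pancreatic and duodenal progenitors. Cells were sorted by tdTomato in both cases. Tamoxifen was injected into the dams for the Foxa2 driver, according to the study's methods, which name no tamoxifen for Pdx1-Cre. Per the study's methods, males of the lineage-tracing crosses carried eGFP in place of 1 mir-302 allele, and the labels do not give the mir-302 genotype of the embryos used. E9.5 against E8.5 thus changed Cre driver, tamoxifen treatment and body region along with age. A number in the library names changed with stage as well, so these cannot be told apart. The labels do not say that the 3 samples of a stage came from separate litters, so p-values measure the spread between these samples, which may be technical.

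A miRNA finds its mRNA targets mainly through its seed, bases 2 to 8 from the 5′ end, so miRNAs with the same seed can act on overlapping targets. The miR-15/16 family is known for slowing the cell cycle at G1, through targets such as cyclin D1, cyclin E1 and Cdk6, and for targeting the survival gene Bcl2. The mir-322 and mir-503 cluster is best known from muscle differentiation and from cell-cycle exit, where Cdc25a is a target. In the pancreas, miR-15 and miR-16 have been linked to the endocrine regulator Neurog3 during regeneration.

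The sequences below are shown because they decide which members can share targets. They are RefSeq mature sequences placed on GRCm38.p6, written 5′ to 3′ with the seed in capitals. All 19 mature members were matched to RefSeq.

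mmu-miR-16-5p: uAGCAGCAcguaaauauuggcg
mmu-miR-15a-5p: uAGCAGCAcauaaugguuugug
mmu-miR-15b-5p: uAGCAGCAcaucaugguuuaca
mmu-miR-195a-5p: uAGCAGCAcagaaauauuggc
mmu-miR-497a-5p: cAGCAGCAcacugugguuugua
mmu-miR-322-5p: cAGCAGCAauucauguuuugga
mmu-miR-503-5p: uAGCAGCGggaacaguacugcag
mmu-miR-351-5p: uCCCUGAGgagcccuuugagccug

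The seed AGCAGCA was carried by 6 members, which were miR-15a-5p, miR-15b-5p, miR-16-5p, miR-195a-5p, miR-497a-5p and miR-322-5p, and by no other mature entry of the table with a RefSeq sequence. Of the mir-322 cluster, miR-322-5p therefore had the whole seed of miR-16-5p. Within bases 1 to 8 it differed from miR-16-5p only by U1C, counted from 1 at the 5′ end, which lies outside the seed. Of all 22 bases, 12 were the same in miR-322-5p and miR-16-5p. miR-503-5p differed in the last base of the seed, A8G, and was the only entry with its seed. miR-351-5p, the most abundant arm of the cluster, had a different seed, CCCUGAG, shared with miR-125a-5p and miR-125b-5p. miR-103-3p and miR-107-3p carried AGCAGCA 1 base further towards the 5′ end, from base 1.

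The other abundant arms of the cluster, shown because the results turn on them too, had seeds unlike those above.

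mmu-miR-322-3p: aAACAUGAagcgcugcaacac
mmu-miR-542-3p: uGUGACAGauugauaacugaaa
mmu-miR-125a-5p, for comparison with miR-351-5p: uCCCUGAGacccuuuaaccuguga

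In the GRCm38 annotation, Mir15b and Mir16-2 lay on chromosome 3, 69009772 to 69009996, plus strand, within an intron of Smc4, a condensin subunit gene of mitotic chromosomes. Mir15a and Mir16-1 lay on chromosome 14, 61631880 to 61632110, minus strand, in the non-coding gene Dleu2, where Mir15a was intronic and Mir16-1 overlapped an exon. Mir497 and Mir195a lay between genes on chromosome 11, 70234717 to 70235135, plus strand. The cluster from Mir322 to Mir450b lay between genes on chromosome X, 53047997 to 53054349, minus strand, with 7 precursor genes in 6353 bases. Mature miR-16-5p is the same from both mir-16 copies, so its reads cannot be assigned to either locus. The precursor entries mir-16-1 and mir-16-2 had equal counts in 7 of 12 libraries, all at 4 counts or fewer, and differed by up to 38 counts in the others, 95 against 57 in replicate 1 and 20 against 56 in replicate 3 of E8.5. How reads that match both were divided is not given in the sources used here.

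The libraries held 53996 to 1103383 counts, and the 3 from E9.5 were the smallest, at 53996 to 80075. Levels are given as CPM, the count over the TMM-scaled total of the library on the usual scale. The detection floor, taken as 3 counts, was 32.2 to 76.3 CPM in the E9.5 libraries and 2.76 to 25.9 CPM in the others. Intervals and floors cover counting error only, since the counts are reads after PCR. The members together held 50629 counts, between 0.450% and 1.496% of a library. Of their 348 values (29 entries in 12 libraries), 144 were 0 and 68 were 1 to 5 counts, so most of what follows rests on a few abundant arms.

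**Figure D1:**
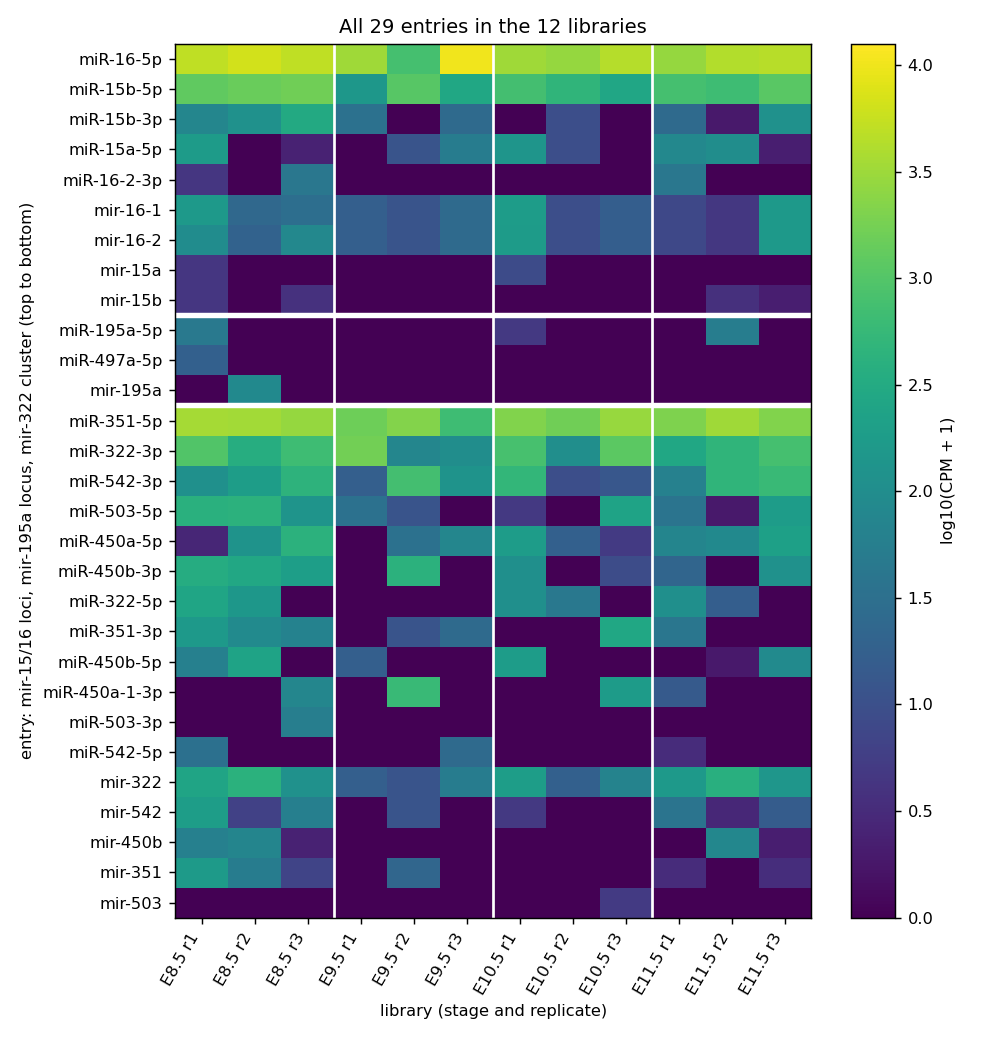
Level of each of the 29 entries (vertical axis, grouped by locus) in each of the 12 libraries (horizontal axis, by stage and replicate, r1 to r3), as log10(CPM + 1) in colour. miR-16-5p, miR-15b-5p and miR-351-5p are detected in every library, while most other entries are near 0 in some libraries of nearly every stage.

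The dominant member of the mir-15/16 loci was miR-16-5p, with 21539 counts or 77.5% of the counts of these loci. At E8.5 it stood at 5144, 6497 and 5128 CPM (replicates 1 to 3). The E9.5 libraries held 3251, 763 and 10251 CPM, so the lowest and the highest library of the whole series were both E9.5 libraries, 13.4-fold apart. The values were 3327, 2869 and 4409 CPM a day later, and those of E11.5 were 2818, 4215 and 4533 CPM. Within E8.5, E10.5 or E11.5 the highest library was 1.27-fold, 1.54-fold and 1.61-fold the lowest. The E9.5 spread was beyond counting error: the share of counts was 0.0887% in replicate 2 (exact 95% interval 0.0693 to 0.112, 71 counts) and 0.746% in replicate 3 (0.675 to 0.823, 403 counts). These shares are before TMM scaling, whose factors of 1.17 and 0.733 for these replicates widened the spread in CPM. The column name of E9.5 replicate 3, like that of E8.5 replicate 1, carries a different range label from all others. The part of that difference in the spread was not tested. Every E11.5 library was lower than every E8.5 library, the lowest of which was at 5128 CPM. By rank in the library, miR-16-5p was between the 30th and the 131st of all entries.

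miR-15b-5p, which shares the seed and a locus with mir-16-2, was next, with 4863 counts. The E8.5 libraries held 1265, 1468 and 1638 CPM and those of E9.5 held 147, 1074 and 279.8 CPM, all below E8.5. The E10.5 values were 754, 475 and 270.4 CPM and the E11.5 values 777, 663 and 1142 CPM, again all below E8.5. The E9.5 values rest on 9, 100 and 11 counts. The replicate 2 library of E9.5, which was lowest for miR-16-5p, was the highest of that stage for miR-15b-5p, so these arms with 1 seed did not rank the E9.5 libraries alike.

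miR-15a-5p, from the Dleu2 locus, was scarce, with 287 counts in all. At E8.5 it was at 174, 0 and 1.45 CPM, which are 100, 0 and 1 counts. The E9.5 libraries had 0, 10.7 and 50.9 CPM, or 2 counts at most. E10.5 had 138, 8.64 and 0 CPM, and E11.5 had 80.3, 101 and 1.21 CPM. Every stage held a library at 1 count or fewer, so that no stage was consistently high or low.

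miR-15b-3p, the passenger arm of mir-15b, had 74.8, 117 and 309.8 CPM in the E8.5 libraries and 32.7, 0 and 25.4 CPM in those of E9.5. It then had 0, 8.64 and 0 CPM (E10.5) and 25.2, 0.920 and 116 CPM (E11.5), and of the later libraries 1, from E11.5, reached the range of E8.5. The precursor entry mir-16-1 gave 165, 23.4 and 29.1 CPM for E8.5, 16.3, 10.7 and 25.4 CPM for E9.5, 184, 8.64 and 15.7 CPM for E10.5 and 6.88, 3.68 and 166 CPM for E11.5. Its near copy mir-16-2 gave 99.2, 18.2 and 81.4 CPM, then 16.3, 10.7 and 25.4 CPM, then 179.97, 8.64 and 15.7 CPM, and last 6.88, 3.68 and 161 CPM. Each E9.5 value of these precursors is a single count, and at E10.5 and E11.5 only 1 library of the stage was high. The untested entries of these loci were miR-16-2-3p at 0 to 41.3 CPM and the precursors mir-15a and mir-15b at no more than 2 and 3 counts in a library.

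In the mir-322 cluster miR-351-5p led, with 13302 counts or 58.6% of the cluster. The E8.5 libraries held 3509, 3402 and 2806 CPM, and those of E9.5 held 1585, 2213 and 661 CPM. The E10.5 values were 2129, 1624 and 2979 CPM and the E11.5 values 2048, 3282 and 2122 CPM. The E9.5 libraries were all below the E8.5 libraries, and the later stages overlapped both. The E9.5 library that was highest for miR-16-5p, replicate 3, was the lowest of the series for miR-351-5p, with 26 counts.

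miR-322-5p, the cluster arm with the miR-16-5p seed, was detected in only 6 libraries, with 304 counts in all. The E8.5 libraries held 261, 148 and 0 CPM, and all 3 of E9.5 were at 0. The E10.5 values were 107.2, 43.2 and 0 CPM and the E11.5 values 108, 15.6 and 0 CPM. The library at 0 was replicate 3 at each of the other stages. The E8.5 library at 0 held 594224 counts, so that its floor was 4.36 CPM against 261 CPM in replicate 1 of that stage. The same hairpin was far from absent: miR-322-3p, the opposite arm, was detected in all 12 libraries. The E8.5 libraries held 985, 356 and 682 CPM, and those of E9.5 held 1683, 75.2 and 102 CPM. The E10.5 values were 804, 104 and 1164 CPM and the E11.5 values 277, 478 and 778 CPM. No stage stood apart for miR-322-3p, and the libraries of E9.5 alone differed by 22.4-fold.

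The arm that led was the same in every library for 4 hairpins. The 3p arm of mir-322 exceeded the 5p arm in 12 of 12 libraries, and the 5p arm took 8.96% of the mature counts of the hairpin. The 3p arm of mir-542 exceeded the 5p arm in 12 of 12 libraries as well, with 1.16% of counts on the 5p arm. mir-15b and mir-351 went the other way in 12 of 12 libraries, with 92.2% and 98.1% of counts on the 5p arm. The 5p arm also led for mir-503, with 94.9% of counts. For mir-450b the 5p arm had 28.8% of counts, but led in 3 libraries against 7 for the 3p arm.

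Of the other members of the cluster, miR-542-3p was the next most abundant arm. The E8.5 libraries held 115, 187 and 448 CPM of it, those of E9.5 held 16.3, 741 and 127 CPM, those of E10.5 509, 8.64 and 11.8 CPM, and those of E11.5 61.9, 486 and 602 CPM. Every stage overlapped the others. miR-503-5p had 400.1, 431 and 132 CPM in the E8.5 libraries and 32.7, 10.7 and 0 CPM in those of E9.5, which is 2 counts or fewer each. It had 3.83, 0 and 239 CPM a day later and 36.7, 0.920 and 181 CPM in the E11.5 libraries, overlapping E8.5. The precursor entry mir-322 gave 251, 411 and 118 CPM for E8.5, 16.3, 10.7 and 50.9 CPM for E9.5, 188, 17.3 and 66.6 CPM for E10.5 and 163, 383 and 143 CPM for E11.5. Its E9.5 values were below all those of E8.5 and E11.5, and are 2 counts or fewer each.

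The arms of the mir-450 hairpins, at the far end of the cluster, were scattered among the libraries. miR-450b-3p had 344, 283 and 199 CPM in the E8.5 libraries, then 0, 429.7 and 0, then 111, 0 and 7.84, and last 20.6, 0 and 119 CPM. miR-450b-5p had 60.9, 236 and 0 CPM, then 16.3, 0 and 0, then 184, 0 and 0, and last 0, 0.920 and 90.7 CPM. miR-450a-5p, which has 2 precursor copies, had 1.74, 125 and 432 CPM, then 0, 32.2 and 76.3, then 184, 17.3 and 3.92, and last 71.1, 86.5 and 213 CPM. Only miR-450b-3p was above 150 CPM in each library of a stage, and that stage was E8.5. miR-450a-1-3p had 0, 0 and 75.6 CPM, then 0, 591 and 0, then 0, 0 and 176, and last 13.8, 0 and 0 CPM, so each stage rested on 1 library. The precursor mir-450b had 60.9, 72.8 and 1.45 CPM at E8.5, 0 in the 6 libraries of E9.5 and E10.5, and 0, 78.2 and 1.21 CPM at E11.5.

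Of the remaining entries of the cluster, miR-351-3p had 162, 91.0 and 64.0 CPM in the E8.5 libraries, then 0, 10.7 and 25.4, then 0, 0 and 274, and last 39.0, 0 and 0 CPM. The precursor mir-542 had 191, 5.20 and 58.2 CPM, then 0, 10.7 and 0, then 3.83, 0 and 0, and last 36.7, 1.84 and 14.5 CPM. For miR-351-3p every E8.5 library was above every E9.5 and E11.5 library, while 1 E10.5 library was the highest of all. The untested entries, miR-503-3p, miR-542-5p and the precursors mir-351 and mir-503, were at or below 169 CPM in every library, and mir-503 had 1 count in all.

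The locus of mir-195a and mir-497a was close to silent at this depth. Its 3 entries held 128 counts in the 12 libraries, of which E8.5 gave 69, E9.5 none, E10.5 1 and E11.5 58. miR-195a-5p reached 45.2 CPM in 1 E8.5 library and 53.4 CPM in 1 E11.5 library, and miR-497a-5p reached 17.4 CPM in 1 E8.5 library. The precursor mir-195a had 33 counts, all in replicate 2 of E8.5 (85.8 CPM), and was at 0 elsewhere. A level of up to 76.3 CPM was not detectable in the smallest E9.5 library.

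**Figure D2:**
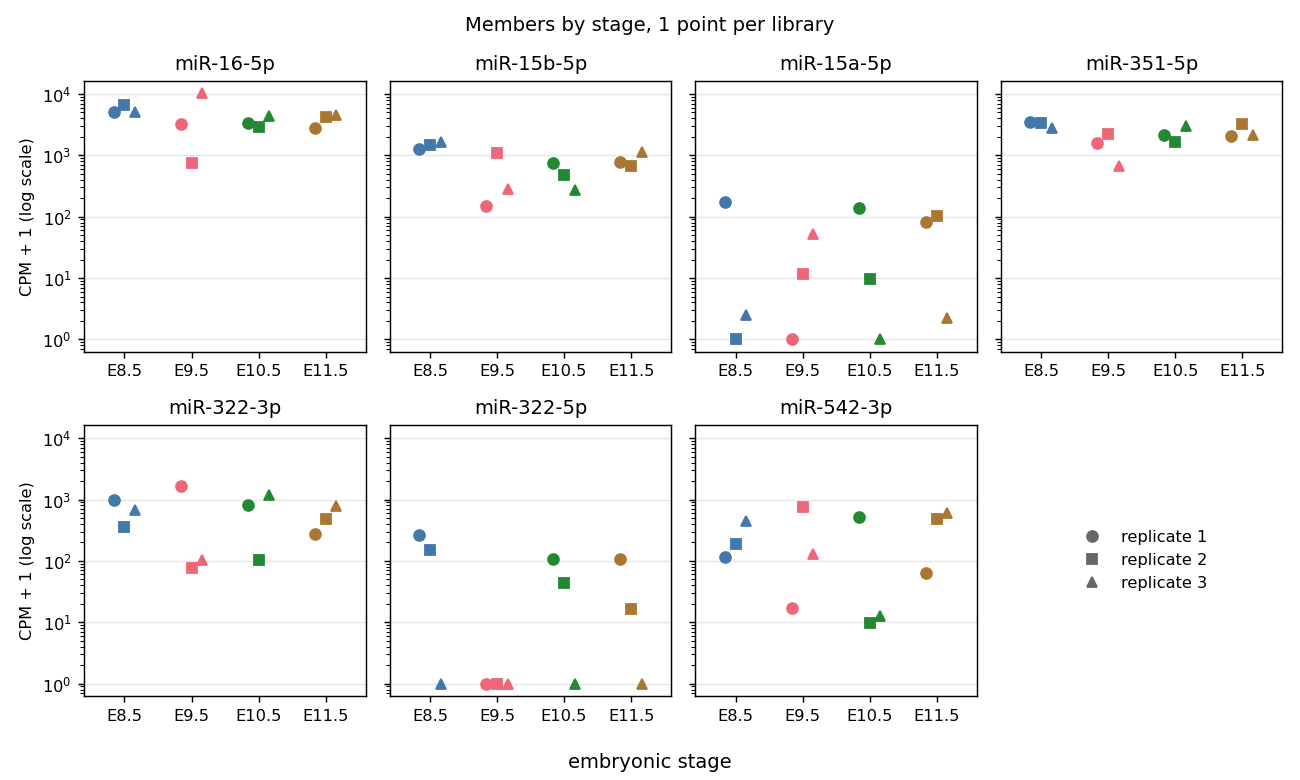
CPM + 1 on a log scale (vertical axis) of 7 members by stage (horizontal axis), with 1 point per library and the marker shape giving the replicate number. miR-16-5p lies between 763 and 10251 CPM at E9.5 and is tighter at the other stages, and miR-322-5p is at 0 in all E9.5 libraries and in replicate 3 of every other stage.

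The stages were compared with the quasi-likelihood test of edgeR over all 571 entries that passed its filter on low counts, with adjusted p-values (Benjamini-Hochberg) over those entries. Of the members, 19 passed the filter, 14 mature arms and 5 precursors. The 10 that did not were miR-16-2-3p, miR-195a-5p, miR-497a-5p, miR-503-3p, miR-542-5p and the precursors mir-15a, mir-15b, mir-195a, mir-351 and mir-503. E9.5 enters 2 of the adjacent comparisons, as does E10.5, and the comparison of E11.5 with E8.5 shares its libraries with the others. Because these are bulk libraries, fewer cells of a type and less RNA per cell cannot be told apart.

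From E8.5 to E9.5, none of the 19 members was called by edgeR, against 5.60% of all entries tested. miR-322-5p alone had an unadjusted p under 0.05 (edgeR adjusted p = 0.238), against 19.97% of all entries. DESeq2 and limma voom called none either, against 13.8% and 2.98% of all entries, and DESeq2 gave no adjusted p for 10 of the members in each comparison with E9.5 and for 3 in each of the others. By value, 17 of the 19 were lower at E9.5, and the members' median log2 fold change was -2.08, beside -0.84 over all entries (-1.95 with miR-322-5p and mir-450b, at 0 at E9.5, set at the bound that 3 counts give). For miR-322-5p, which was at 0 in all E9.5 libraries, the stage mean was at least 8.80-fold lower than the mean of 136 CPM at E8.5, taking 3 counts over the stage (15.5 CPM) as the floor. The floors of single E9.5 libraries were higher, at 32.2 to 76.3 CPM. The 8.80-fold bound rests on 2 of the 3 E8.5 libraries, since the other was at 0 as well. It was 4.78-fold without replicate 1 of E8.5, 4.57-fold without replicate 2 of E9.5 and 13.2-fold without replicate 3 of E8.5. For miR-351-5p the log2 fold change was -1.12 (SE 0.62, 95% limits -2.40 to 0.16, edgeR adjusted p = 0.279). For miR-15b-5p it was -1.53 (SE 0.92, limits -3.43 to 0.37, edgeR adjusted p = 0.311). Both sets of limits include 0. For miR-16-5p it was -0.24 (SE 0.62, limits -1.52 to 1.04), and for miR-322-3p it was -0.12 (SE 1.15, limits -2.50 to 2.26). These last values turned positive under RLE scaling, 0.55 for miR-16-5p and 0.41 for miR-322-3p, and leaving out replicate 2 of E9.5 turned them to 0.55 and 0.61. For miR-15a-5p the change was -1.60 (SE 2.51), and for miR-542-3p it was 0.25 (SE 1.53).

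The libraries of E8.5 and E9.5 did not overlap for 7 of the 19 members, all lower at E9.5, against 34.3% of all entries tested. They were miR-15b-5p, miR-15b-3p, miR-351-5p, miR-351-3p, miR-503-5p and the precursors mir-322 and mir-450b. miR-15b-5p and miR-351-5p overlapped under RLE scaling, and mir-450b had 1 count in its lowest E8.5 library, under the E9.5 floors. The share is close to that of all entries. Other measures moved between these stages too. The summed level of the endothelial markers miR-126a-3p and miR-126a-5p (2 of 2 in the table) ran from 1832 to 2295 CPM in E8.5 libraries and from 32.7 to 408 CPM in E9.5 libraries. The mesenchymal markers (4 of 4, among them miR-143-3p and miR-199a-3p) summed to 6754 to 13250 CPM in the former and 1397 to 4986 CPM in the latter, and the hepatic miR-122-5p stood at 465 to 597 CPM and 38996 to 91802 CPM. The endoderm and pancreas markers (6 of 6, led by miR-375-3p and the miR-200 family) were present in every library, at 31586 to 36336 CPM before and 52249 to 80595 CPM after. Precursor entries took 10.4% to 10.6% of counts in E8.5 libraries and 20.7% to 36.03% in E9.5 libraries. The muscle markers (3 of 3, miR-1a-3p, miR-133a-3p and miR-206-3p) overlapped, at 6324 to 26705 CPM in the former and 5310 to 27015 CPM in the latter. Of the leukocyte markers 1 of 3 was in the table, at 3.83 CPM or less outside E9.5 and 0 to 2671 CPM at E9.5. The erythroid (2 of 3) and neural (2 of 2) markers summed to at most 839 and 374 CPM in any library. The part of these in the members' values was not tested.

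From E9.5 to E10.5, none of the 19 members was called by edgeR, DESeq2 or limma voom, against 4.38%, 11.9% and 0.175% of all entries. None had an unadjusted p under 0.05 in edgeR, against 18.2% of all entries. By value, 11 members were higher at E10.5, 7 were lower and 1 was at 0 change, with a median of 0.59 beside 0.17 over all entries. miR-322-5p, at 0 at E9.5 and in 1 of 3 E10.5 libraries, had a mean of 50.1 CPM at E10.5 (edgeR adjusted p = 0.341). That mean is 3.24 times the floor of 3 counts over E9.5, but 1.39 times without replicate 1 of E10.5 and 1.68 times without replicate 2 of E9.5, and it lies within the floors of single E9.5 libraries, so a difference was not detectable at this depth. miR-351-5p gave a log2 fold change of 0.59 (SE 0.61, limits -0.68 to 1.86), and miR-16-5p one of -0.42 (SE 0.62, limits -1.71 to 0.86), which leaving out replicate 3 of E9.5 turned to 0.83. miR-15b-5p was nearly level by value, at -0.01 (SE 0.90, limits -1.87 to 1.85). For no member were the libraries of E9.5 and E10.5 apart, against 15.8% of all entries. The summed muscle markers were at 268 to 3539 CPM in E10.5 libraries, all below E9.5, with miR-133a-3p at 0, and the endoderm and pancreas markers at 117644 to 154801 CPM, all above. Precursor entries took 12.7% to 13.6% of counts in E10.5 libraries, all below E9.5. The part of these measures in the members' values was not tested.

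From E10.5 to E11.5, both Pdx1-Cre stages with deeper libraries, none of the 19 members was called by edgeR, DESeq2 or limma voom, against 0.350%, 1.40% and 0.525% of all entries. In edgeR none had an unadjusted p under 0.05, against 10.7% of all entries. Here 11 members were higher by value and 8 lower, and the median was 0.15 beside 0.07 over all entries. The log2 fold change was 0.12 for miR-16-5p (SE 0.62, limits -1.15 to 1.40) and 0.15 for miR-351-5p (SE 0.61, limits -1.11 to 1.40), and both fell just below 0 under RLE scaling. It was 0.78 for miR-15b-5p (SE 0.90, limits -1.08 to 2.64), -0.44 for miR-322-3p (SE 1.14) and 1.11 for miR-542-3p (SE 1.54), the last of which was 5.18 without replicate 1 of E10.5. The libraries of these stages did not separate for any of the 19 members, against 13.5% of all entries. These limits still allow changes of more than 2-fold in either direction for miR-16-5p and miR-351-5p, the best-measured members.

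Over the whole course, E11.5 against E8.5, edgeR called none of the 19 members, against 11.6% of all entries, and none had an unadjusted p under 0.05, against 23.3% of all entries. DESeq2 called none, against 16.5% of all entries. limma voom called 2, miR-351-3p and miR-450b-3p, both lower at E11.5, against 25.7% of all entries, a larger share than 2 of 19. By value 17 of 19 members were lower, with a median of -0.75 beside -0.07 over all entries. miR-16-5p gave -0.54 (SE 0.62, limits -1.82 to 0.74, edgeR adjusted p = 0.772), and miR-15b-5p gave -0.76 (SE 0.89, limits -2.61 to 1.10, edgeR adjusted p = 0.783). miR-351-5p gave -0.38 (SE 0.61, limits -1.64 to 0.88), miR-322-5p -1.73 (SE 2.36, and -3.85 without replicate 1 of E11.5 or -0.78 without replicate 1 of E8.5), miR-322-3p -0.40 (SE 1.14), miR-542-3p 0.62 (SE 1.52) and miR-15a-5p 0.06 (SE 2.29). Libraries did not overlap for 4 of the 19, all lower at E11.5, against 38.5% of all entries. These were miR-16-5p, miR-15b-5p, miR-351-3p and miR-450b-3p, and they stayed apart with TMM, RLE or library-size scaling. Between E8.5 and E11.5 the summed muscle markers went from 6324 to 26705 CPM down to 282 to 1721 CPM, with miR-133a-3p at 0 at E11.5, and the endothelial markers to 34.4 to 426 CPM. The hepatic miR-122-5p was at 43375 to 70373 CPM and the endoderm and pancreas markers at 94494 to 146962 CPM at E11.5, both above every E8.5 library. The mesenchymal markers overlapped, at 3647 to 7650 CPM at E11.5. The part of these in the members' values was not tested.

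**Figure D3:**
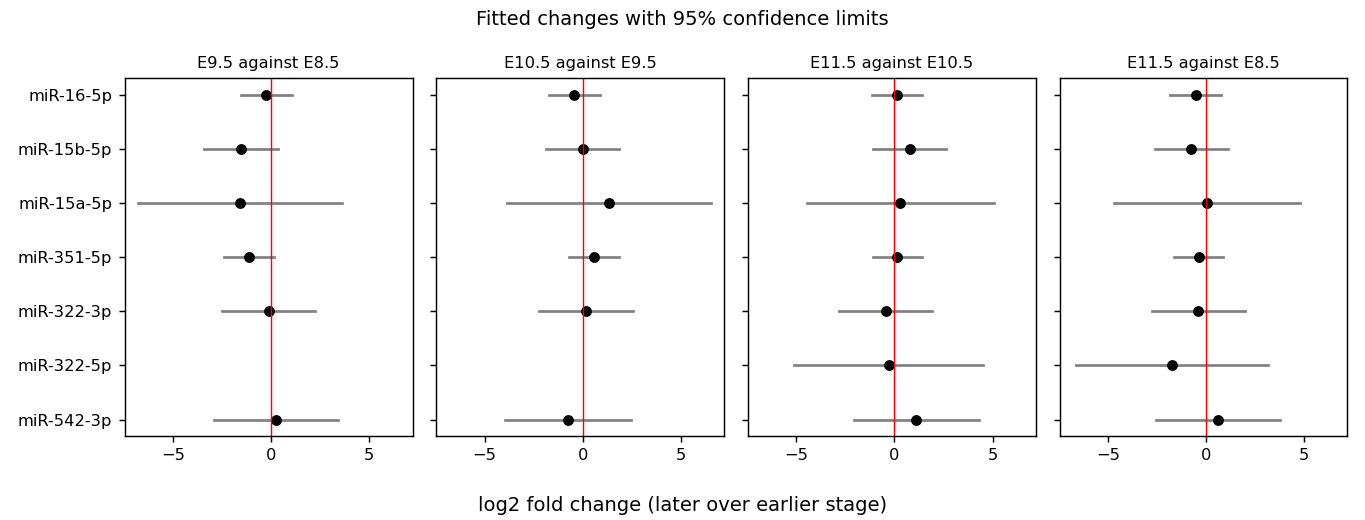
Log2 fold change of the later over the earlier stage (horizontal axis, points) with 95% limits (bars) for 7 members (vertical axis) in the 4 comparisons, from edgeR on 3 libraries a stage. All limits drawn include 0, and they are narrowest for miR-16-5p and miR-351-5p. miR-322-5p is left out of both comparisons with E9.5, where it is at 0. Its limits for E9.5 against E8.5, not drawn, were -17.4 to -0.173 and exclude 0 (edgeR adjusted p = 0.238). Its limits for E10.5 against E9.5, also not drawn, include 0.

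Summed over their entries, the mir-15/16 loci took 0.804% ± 0.0355, 0.441% ± 0.295, 0.413% ± 0.107 and 0.495% ± 0.105 of all counts in the 4 stages in order (SD, n = 3). The mir-322 cluster took 0.630% ± 0.0811, 0.293% ± 0.203, 0.364% ± 0.187 and 0.398% ± 0.0886. The cluster was thus below the mir-15/16 loci on average at each stage, by less than the larger SD at each stage after E8.5. Each E8.5 library had more from the cluster (0.578% to 0.723%) than any of the 9 later libraries (0.0778% to 0.522%). For the mir-15/16 loci this held against E10.5 and E11.5, and 1 E9.5 library, at 0.776%, lay among the E8.5 libraries. All 29 entries together took 1.40% to 1.496% of an E8.5 library and 0.450% to 1.02% of a later one. These sums are descriptions over chosen entries and were not tested.

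**Figure D4:**
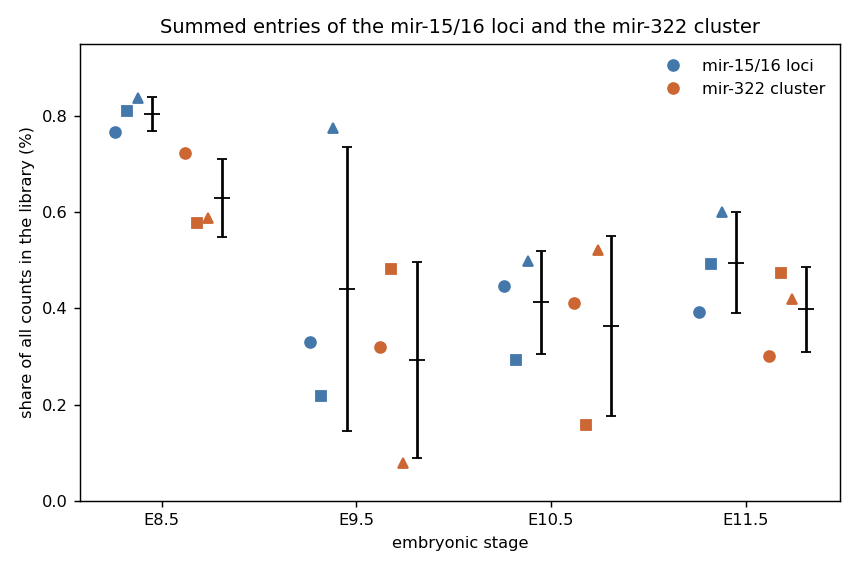
Share of a library's counts (vertical axis, %) taken by all entries of the mir-15/16 loci (blue) and of the mir-322 cluster (orange) at each stage (horizontal axis), with 1 point per library, marker shapes for replicates 1 (circle), 2 (square) and 3 (triangle), and bars for the mean ± SD of 3 libraries. The E8.5 points are the highest except for 1 E9.5 library of the mir-15/16 loci at 0.776%.

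Whether the cluster shifted against the mir-15/16 loci over development was asked with ratios within a library, which no scaling factor changes where both arms are counted. The log2 ratio of miR-322-5p to miR-16-5p, with 0.5 counts added to each, was -7.51 ± 4.61, -8.49 ± 1.26, -7.33 ± 3.33 and -8.53 ± 4.11 in the successive stages (SD, n = 3). The stages did not differ beyond this spread (exact permutation test over 369600 arrangements, p = 0.951). Single libraries ran from -12.9 to -4.30, since the ratio is set by the added 0.5 wherever miR-322-5p is at 0. In such libraries, every E9.5 library among them, the ratio follows the count of miR-16-5p and so the depth. The permutation tests of this ratio therefore cannot decide whether miR-322-5p shifted against miR-16-5p. Between pairs of stages the exact two-sided p was 0.7 to 0.8 (adjusted p = 0.8 over 4 comparisons), where the smallest that 3 against 3 libraries allow is 0.1.

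The ratio of miR-351-5p to miR-16-5p, the best-counted arms of the cluster and of the mir-15/16 loci, was far tighter outside E9.5. On the log2 scale it was -0.79 ± 0.20 for E8.5, -0.68 ± 0.13 for E10.5 and -0.64 ± 0.40 for E11.5, so miR-16-5p exceeded miR-351-5p in all 9 of these libraries. At E9.5 it was -1.03, 1.53 and -3.93 in replicates 1 to 3, a mean of -1.14 ± 2.73. The exact permutation test over the stages gave p = 0.873. The ratio of miR-322-3p to miR-16-5p, chosen after the values were seen, was -3.16 ± 0.93, -3.56 ± 2.78, -2.90 ± 1.59 and -3.01 ± 0.41 from E8.5 to E11.5 (exact permutation p = 0.970). For the summed mature arms of the cluster over those of the mir-15/16 loci, the log2 ratio was -0.45 ± 0.23, -0.76 ± 2.35, -0.31 ± 0.52 and -0.39 ± 0.17, and it was above 0 in 2 of 12 libraries.

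**Figure D5:**
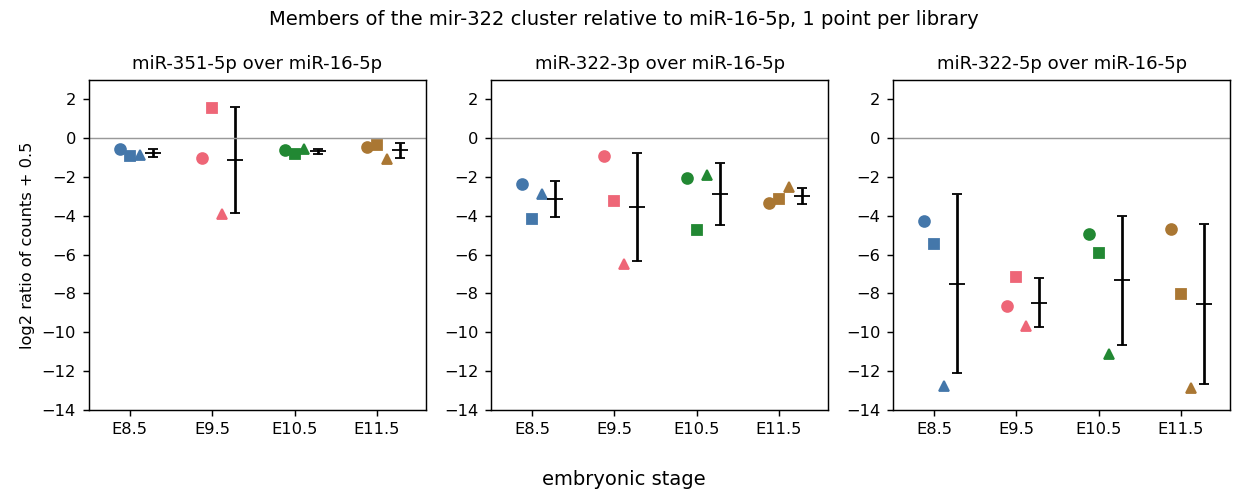
Log2 ratio of counts + 0.5 (vertical axis) of miR-351-5p, miR-322-3p and miR-322-5p to miR-16-5p, by stage (horizontal axis), with 1 point per library, marker shapes for replicates 1 (circle), 2 (square) and 3 (triangle), and bars for the mean ± SD of 3 libraries. The first ratio lies between -1.09 and -0.36 in the 9 libraries outside E9.5 and spreads from -3.93 to 1.53 at E9.5.

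The miRNAs related by seed did not all move alike by value. Mean levels of miR-125a-5p and miR-125b-5p were above E8.5 at each later stage, and those of miR-103-3p were below. miR-125a-5p, which has the seed of miR-351-5p, averaged 2971 ± 735, 4569 ± 2135, 4829 ± 2536 and 15362 ± 1695 CPM in the successive stages (SD, n = 3). It rose from E8.5 to E11.5 by a log2 fold change of 2.37 (SE 0.48, edgeR adjusted p = 0.00146) and was called under all 21 alternatives run. miR-125b-5p averaged 314 ± 167, 2017 ± 1479, 1051 ± 415 and 1263 ± 170 CPM and was not called in any comparison (lowest edgeR adjusted p = 0.0674). miR-103-3p averaged 3924 ± 415, 1717 ± 863, 3514 ± 955 and 2974 ± 307 CPM, and miR-107-3p 42.0 ± 43.5, 12.1 ± 12.8, 136 ± 218 and 31.3 ± 50.4 CPM, with no call for either. Whether any of these changes differed from that of a member was not tested.

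Of 15 other miRNAs known for roles in the cell cycle, from the miR-17 and miR-34 families and miR-221, miR-222, miR-24 and miR-26, 12 were in the table and all 12 were tested. From E8.5 to E9.5, 1 rose and 11 were not called, no call was made from E9.5 to E10.5 or from E10.5 to E11.5, and from E8.5 to E11.5 1 rose and 1 fell. These counts, 1 of 12 and 2 of 12, stand beside 5.60% and 11.6% of all entries called in those comparisons, and 4.38% and 0.350% in the comparisons with no call. The one that rose was miR-24-3p, which is known to target E2f2 and Myc, from 2362 ± 495 CPM in E8.5 libraries to 9335 ± 663 in E9.5 and 10237 ± 346 in E11.5 libraries (log2 fold change 1.98, SE 0.37, edgeR adjusted p = 0.000860, and 2.12, SE 0.37, edgeR adjusted p = 0.000382). The one that fell was miR-20b-5p of the miR-17 family, from 333 ± 68.9 CPM at E8.5 to 1.73 ± 1.51 at E11.5 (edgeR adjusted p = 0.0410). Each E11.5 library held 3 counts of it or fewer, no more than the detection floor. The call for miR-20b-5p was kept in 10 of the 20 alternatives that tested it and lost in the rest. miR-24-3p and miR-20b-5p are named here because they were called, and the others as the most abundant of the list. miR-26a-5p at 19350 ± 1102 CPM at E8.5 and 23688 ± 3487 at E11.5, miR-26b-5p at 4895 ± 718 and 6506 ± 1007, and miR-93-5p at 7258 ± 1255 and 4134 ± 609, were not called. The median log2 fold change of the 12 was -1.48 from E8.5 to E9.5 and -1.09 from E8.5 to E11.5, beside -0.84 and -0.07 over all entries.

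Among 363 other mature entries, those whose log2 CPM over the 12 libraries was most like miR-16-5p were miR-1983 (Pearson r = 0.769), miR-30a-3p (0.752) and miR-483-5p (0.730). Those most like miR-322-5p were miR-17-3p (0.771), miR-185-5p (0.691) and miR-140-3p (0.685). The 12 points share library depth, and miR-17-3p and miR-140-3p were at 0 in 6 and 7 of the libraries. These correlations are given as a description.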

How the data were processed

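Members and lists were chosen with earlier results of these data known. The deposited values are raw counts of reads assigned by the authors to each mature or precursor miRNA, not normalised or pooled, in 1 table with a column for every library. According to the study's methods, reads were trimmed, aligned to mm10 with STAR in the COMPSRA pipeline and counted. The use of molecular identifiers is not given in the sources used here. The submitters' processing notes also name GRCm39.

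Counts were tested with edgeR 4.0.16 in R 4.3.3 (TMM, filterByExpr with a minimum count of 10 and a minimum total of 15, glmQLFit and glmQLFTest, stage as the only factor, 12 libraries in 1 fit). Entries with an adjusted p under 0.05 were called. The common biological coefficient of variation was 1.19. The pipeline was tested on simulated counts. Log2 ratios of counts + 0.5 were compared by two-sided exact permutation tests in Python 3.11.15 with scipy 1.17.1. Alternatives used DESeq2 1.42.0 and limma 3.58.1, other scalings and filters, and left out each library in turn. Where a stage was at 0, folds are bounds against 3 counts over the stage.

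Values per library are given for all members that passed the filter, and ranges for the rest. The 3 entries most like miR-16-5p and miR-322-5p, 4 seed relatives and 15 cell-cycle miRNAs were named by rule.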

Additional observations from a re-analysis of the deposited data

How the results depend on the processing

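No member tested was called in any comparison under any alternative except limma voom, which called 2 in E11.5 against E8.5: miR-351-3p (log2 fold change -5.54, adjusted p = 0.0273) and miR-450b-3p (-4.84, adjusted p = 0.0326). That fit called 147 of all 571 entries (25.7%), against 66 in edgeR. Some alternatives tested few members. A filter of 10 counts in every library left 2, and the fits of only the libraries compared left 11, 4, 10 and 18 in the 4 comparisons in order. DESeq2 gave no adjusted p for 10 members in each comparison with E9.5 and for 3 in each of the others. limma voom called 17, 1 and 3 entries in the 3 adjacent comparisons and DESeq2 79, 68, 8 and 94 in all 4, against 32, 25, 2 and 66 in edgeR. RLE scaling gave 50 for E9.5 against E8.5. No filter gave 50 and 5 in the next 2 comparisons, 4.75% and 0.475% of 1053 entries. The filter of 10 counts in every library gave 1 and 43 in the last 2, but out of far fewer entries. Its shares were 39.3%, 19.6%, 0.935% and 40.2% in the 4 in order, against 5.60%, 4.38%, 0.350% and 11.6% of 571. The fits of only the libraries compared gave 11 and 4 in the middle 2 (4.37% and 0.993%) and 20.1% of 527 entries in the last. Mature entries alone gave 1 (0.267%) for E11.5 against E10.5. Leaving out 1 library, with more than 571 entries tested each time, gave 21 to 44, 7 to 42, 1 to 5 and 38 to 80 in the 4 in order. miR-351-3p and miR-450b-3p each have at least 1 E11.5 library at 0, and their edgeR adjusted p-values were 0.616 and 0.620. Depth limits E9.5 most, where 3 counts are 32.2 CPM or more. No stage ratio of miR-322-5p to miR-16-5p changed its side of the threshold. The added 0.5 sets this ratio wherever miR-322-5p is at 0, so those tests cannot decide whether the ratio shifted. With miR-15a-5p in place of miR-16-5p p was 0.365, for the 3 Pdx1-Cre stages alone 0.857, and with miR-322-3p, an alternative chosen after seeing the data, 0.970. Leaving out 1 library gave 0.535 to 0.985.

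Directions of small fitted changes depended on the choices, and none of the values that follow was called. RLE scaling, which moved the median of all entries from E8.5 to E9.5 from -0.84 to -0.21, gave miR-16-5p 0.55 and miR-322-3p 0.41 there, miR-322-3p -0.31 from E9.5 to E10.5, and miR-16-5p -0.091 and miR-351-5p -0.065 from E10.5 to E11.5. DESeq2 gave 0.55, 0.41, -0.31, -0.091 and -0.066 for the same changes. Library size alone gave miR-15a-5p -0.079 for E11.5 against E8.5. For E9.5 against E8.5, limma voom gave miR-15a-5p 1.32 and miR-542-3p -0.58, the fit of only those libraries gave miR-16-5p 0.49 and miR-322-3p 0.36, and mature entries alone gave miR-322-3p 0.028. For E10.5 against E9.5, limma voom gave miR-16-5p 0.60, miR-15b-5p 0.21 and miR-15a-5p -0.40, and the fit of only those libraries gave miR-322-3p -0.083.

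The replicate numbers did not pair the libraries: deviations of same-numbered libraries correlated at -0.148 to 0.112 over 18 pairs, and 3 of 12 libraries were closest to their own number. With the replicate block, 26, 22, 3 and 61 entries were called in the 4 comparisons in place of 32, 25, 2 and 66, no member among them, and the exact p of the stage ratio was 0.766. The block turned miR-15a-5p to 2.36 and miR-542-3p to -0.025 for E9.5 against E8.5, miR-15b-5p to 0.19, miR-15a-5p to -2.29 and miR-542-3p to 0.054 for E10.5 against E9.5, and miR-322-3p to 0.21 for E11.5 against E10.5 and 0.0018 for E11.5 against E8.5.

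Leaving out each library in turn gave these ranges where the direction turned. For E9.5 against E8.5 they were -1.46 to 0.55 for miR-16-5p, -3.32 to 4.11 for miR-15a-5p, -3.05 to 0.61 for miR-322-3p and -1.56 to 0.96 for miR-542-3p. For E10.5 against E9.5 they were -1.14 to 0.83 for miR-16-5p, -0.68 to 1.03 for miR-15b-5p, -2.43 to 3.05 for miR-15a-5p, -0.55 to 3.05 for miR-322-3p and -5.09 to 1.07 for miR-542-3p. For E11.5 against E10.5 they were -0.36 to 3.87 for miR-15a-5p, -0.15 to 0.44 for miR-351-5p, -2.46 to 0.87 for miR-322-5p and -0.86 to 0.23 for miR-322-3p. For E11.5 against E8.5 they were -0.66 to 5.81 for miR-15a-5p and -0.78 to 0.034 for miR-322-3p. Without turning, miR-322-5p ran from -3.85 to -0.78 for E11.5 against E8.5, and miR-542-3p from 0.67 to 5.18 for E11.5 against E10.5, where limma voom gave 2.71. The cause was not tested.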
